A study of Homo sapiens with 6 samples.

Results

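The genes described here are 330 antisense RNAs measured in HT1080 cells, a human fibrosarcoma line, with and without GPR56. An antisense RNA is a transcript, mostly not translated, whose gene lies on the strand opposite to another gene. The 330 are the rows that the deposited gene table calls antisense and that had a mean of at least 1 FPKM over the 6 libraries. FPKM is fragments scaled to gene length and library depth, a level that can be compared between genes. The table had 58735 rows and 5583 were antisense, 3309 of these held a read in some library and 339 reached that level. The rule then dropped 9 rows, which lie on chromosomes X and Y or carry the names of small nucleolar RNA host genes. The members were thus chosen by their mean measured level over both genotypes, so their presence at 1 FPKM is not a finding. The lowest members were GCC2-AS1 at 1.002 FPKM, AP002748.3 at 1.003 and NADK2-AS1 at 1.005, and the highest rows left out were TMEM92-AS1 at 0.9837, AL445471.1 at 0.9828 and AC073842.2 at 0.9812.

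The series compared wild-type cells (WT) with cells in which the adhesion G protein-coupled receptor GPR56, gene symbol ADGRG1, had been knocked out with CRISPR-Cas9 (KO), with 3 libraries per genotype. The column names mention DMSO, the usual drug solvent, for both genotypes, with no dose or time. All cells grew in DMEM with serum, and libraries were made from total RNA with a SMARTER mRNA kit. The labels do not say whether the 3 libraries of a genotype came from separate cultures or whether the knockout was 1 clone, so p-values measure only the spread between these libraries, and a difference between genotypes cannot be told apart from one between clones.

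Antisense transcription often starts close to the start of a protein-coding gene, where 1 open stretch of chromatin serves both strands. Pairs are called head to head when the starts lie inside the overlap, and tail to tail when the ends do. An antisense RNA may also lie wholly inside its sense gene. Known antisense RNAs act in cis on the neighbouring gene, in trans as scaffolds for proteins, or have no known role, and many are short-lived and removed by the nuclear exosome.

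The upstream sequences of the antisense RNAs with the largest rise and the largest fall are shown because the results below turn on these members. Each runs from 250 bases before to 50 bases after the start that RefSeq gives on GRCh38.p14, on the plus strand, and capitals mark matches to a searched motif. NKILA, an NF-kB-interacting RNA, starts within the body of PMEPA1, and its window is chr20:57709933-57710232. GATA2-AS1 starts within the body of GATA2, with the window chr3:128488953-128489252.
NKILA: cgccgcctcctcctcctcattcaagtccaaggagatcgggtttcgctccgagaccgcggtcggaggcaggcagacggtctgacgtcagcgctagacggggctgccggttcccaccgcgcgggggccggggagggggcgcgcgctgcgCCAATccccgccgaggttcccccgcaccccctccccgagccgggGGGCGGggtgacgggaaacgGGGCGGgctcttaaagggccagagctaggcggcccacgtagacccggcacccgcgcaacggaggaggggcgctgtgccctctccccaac
GATA2-AS1: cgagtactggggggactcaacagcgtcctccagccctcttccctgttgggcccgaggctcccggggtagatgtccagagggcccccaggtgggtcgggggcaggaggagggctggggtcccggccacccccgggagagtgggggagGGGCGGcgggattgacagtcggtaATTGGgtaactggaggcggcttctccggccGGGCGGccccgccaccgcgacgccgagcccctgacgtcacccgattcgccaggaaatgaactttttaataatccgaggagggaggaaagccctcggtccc
Each window held 1 CCAAT box (CCAAT, read as ATTGG on the other strand in GATA2-AS1) and 2 GC boxes (GGGCGG), letters that 34.6% and 45% of all 35116 RefSeq windows also held on either strand. Neither window held the SMAD motif CAGACA, which 16.9% of all windows held, or the AP-1 motif TGACTCA, held by 4.95%. The GATA motif in the form AGATAA and in the form with T as its first letter, found in 16.3% of all windows, was also absent from both. The TATA box, TATAAA, found in 11.5%, was absent as well. A match is a string of letters and not a tested site. The NKILA window was 73.7% G and C with 37 CpG dinucleotides, and that of GATA2-AS1 68.3% with 24. RefSeq windows matched 88 of the 330 antisense RNAs by name, with a median of 64.3% G and C and 24 CpG, against 58.7% and 14 over all windows.

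ADGRG1 stood at 6.61, 6.07 and 6.87 FPKM in WT and at 2.68, 2.54 and 2.58 in KO, 2.51-fold lower (limma log2 fold change -1.06 ± 0.07 SE, adjusted p = 6.24e-05). Its RNA fell but was not lost in the libraries labelled KO. The libraries held 16410352 to 16461752 reads on genes in WT and 16955111 to 17276269 in KO. The 6 mesenchymal markers VIM, FN1, TIMP1, CALD1, LGALS1 and SPARC summed to 1340 to 1370 FPKM in WT and 1590 to 1680 in KO. Epithelial, leukocyte and hepatocyte markers summed to at most 0.253 FPKM in any library, with CDH1, PTPRC and ALB at 0, and the endothelial pair PECAM1 and CDH5 to 0.289 to 0.356 in WT and 1.29 to 1.55 in KO. In bulk RNA, fewer cells that express a gene and less RNA per cell cannot be told apart.

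Most of the antisense RNAs were scarce. Their median level was 1.77 FPKM and the highest 65.4, and 200 of them (60.6%) lay under 2 FPKM while 34 reached 5 and 11 reached 10. With a median length of 1112.5 bases, the median member rested on 40.2 reads per library, and 190 had under 50. Together they took 0.17 to 0.174% of the reads in WT and 0.161 to 0.167% in KO. Their summed level was 967.6, 942.4 and 980.3 FPKM in WT and 977.1, 998.5 and 980.6 in KO, and these ranges overlapped. The members lay on 22 chromosomes, 206 carried only a clone-based name, 101 a name ending in AS and 8 one ending in DT, for a divergent transcript.

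The labels do not state whether reads were counted by strand, and without strand the reads of a gene and its antisense partner cannot be told apart. The table shows what antisense rows held where exons are shared, which does not settle how reads were counted. Among antisense rows with at least 90% of their exonic bases inside the exons of a sense gene of 10 FPKM or more, 129 of 136 held no read and the highest stood at 0.2957 FPKM. Among the 351 with no exonic base in such exons, 54 held no read and 33 reached 1 FPKM. Of the 330 members, 187 shared exonic bases with the main sense gene, by a median of 13.7% of their own exonic bases, and 11 shared 50% or more. The other 92 with such a gene shared none. If strand was not used, reads from a sense intron and from an antisense exon cannot be told apart there. The same holds for those exonic bases of the 187 that lie inside the sense gene but outside its exons.

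Between genotypes, 80 of the 330 antisense RNAs changed, 44 higher and 36 lower in KO, in a limma fit over all 12000 genes of at least 1 FPKM on log2(FPKM + 1), with p-values adjusted over all of them and a threshold of 0.05. That is 24.2%, where 43.4% of all tested genes passed (21% higher and 22.4% lower), 46.7% of protein-coding genes and 36.6% of lincRNA genes. The values of the 2 genotypes did not overlap in 111 antisense RNAs (33.6%), against 54.7% of all tested genes, and 78 met both conditions. Log2 fold changes ran from -1.66 to 1.5 with a median of 0.04, against -0.01 over all tested genes. On this scale the 1 added to each FPKM shrinks the fold change of scarce genes. Among those that changed, the ratio of genotype means was at least 1.5 in 31 that rose and 26 that fell, and at least 2 in 10 and 10. In 57 members the lower genotype mean was under 1 FPKM, so that these passed the level through the higher genotype, and 28 of them were among the 80. Of the other 273, 30 rose and 22 fell. Of the 10 largest rises named below, NALT1, GAS6-AS1, AL391834.1, AL109615.3, FUT8-AS1 and AP001469.1 had a WT mean under 1 FPKM. Of the 10 largest falls, GATA2-AS1, AL049629.1, AC096586.2, AC090774.2, AL078581.1 and LBX2-AS1 had a KO mean under 1 FPKM.

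**Figure D1:**
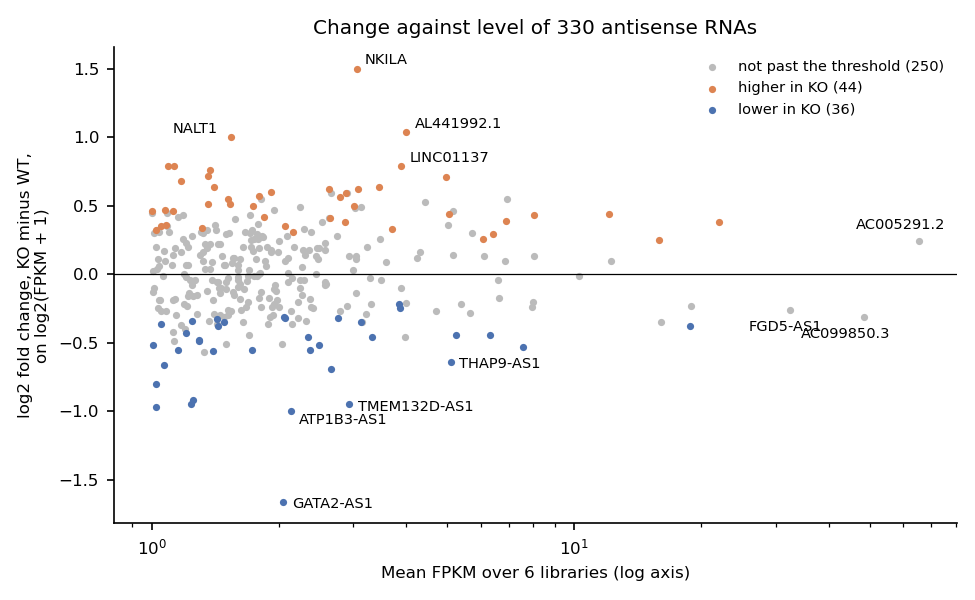
Each point is 1 of the 330 antisense RNAs, with its mean FPKM over 6 libraries on a log axis against its log2 fold change (KO minus WT, on log2(FPKM + 1)), coloured by whether it passed the limma threshold. NKILA at 1.5 and GATA2-AS1 at -1.66 lie farthest from 0, and the most abundant members, such as AC005291.2 and FGD5-AS1, lie near it.

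The share that passed moved with the number of reads. Under 50 reads per library, 34 of 190 antisense RNAs changed (17.9%), against 20.5% of the 1107 tested genes with so few reads. From 50 to under 200 reads the shares were 31.6% of 114 and 39.7% of 1848, and with 200 or more 38.5% of 26 and 46.9% of 9045. Matched on level in place of reads, 55 of 264 members of 1 to 3 FPKM changed (20.8%), against 36.7% of all 3182 genes of that level. The part of read number in the lower share was not tested further.

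**Figure D2:**
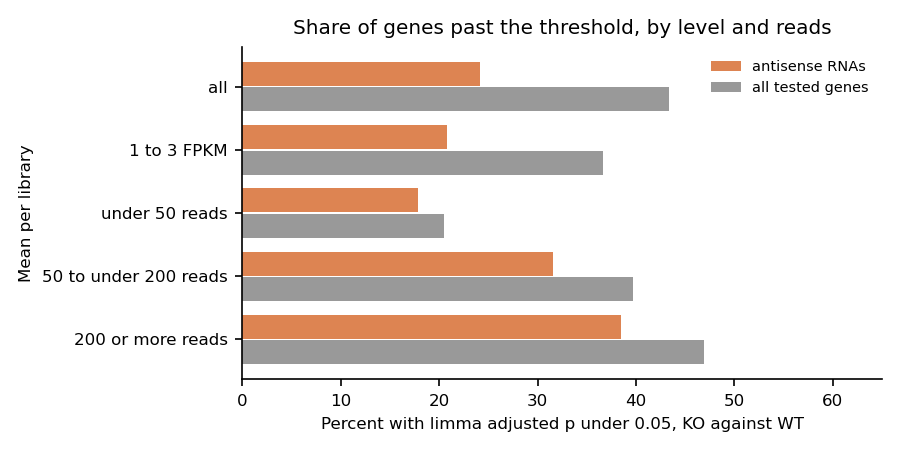
Bars give the percent of antisense RNAs (orange) and of all tested genes (grey) with a limma adjusted p under 0.05, for all of them, for those of 1 to 3 FPKM and by mean reads per library. The bars for antisense RNAs are shorter throughout, at 24.2 against 43.4% in all, and come closest under 50 reads, at 17.9 against 20.5%.

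NKILA rose most. It binds the NF-kB inhibitor complex and restrains NF-kB signalling, and it lies head to head with PMEPA1, a membrane protein induced by TGF-beta that limits SMAD signalling (NKILA chr20:57710183-57712780 plus strand, PMEPA1 chr20:57648392-57711536 minus strand, GRCh38). NKILA stood at 1.02, 1.18 and 1.16 FPKM in WT and 4.64, 5.08 and 5.24 in KO, from 146 and 660 reads in all. Every KO library lay above every WT library, as the choice of the largest rises required. The KO mean was 4.45-fold higher (limma log2 fold change 1.5 ± 0.08 SE, adjusted p = 2.62e-05). PMEPA1 stood at 12.81, 13.08 and 13.67 FPKM in WT and 82.91, 80.31 and 83.79 in KO, 6.24-fold higher (2.55 ± 0.06 SE, adjusted p = 7.22e-07). The 2 starts are 1353 bases apart and 13.2% of the exonic bases of NKILA lie in exons of PMEPA1. The sense gene rose more, with a difference of log2 fold changes, antisense minus sense, of -1.06 ± 0.11 SE (limma over all 1582 overlapping opposite-strand pairs, adjusted p = 0.000457).

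GATA2-AS1 fell most, from 3.18, 4.13 and 3.58 FPKM in WT to 0.51, 0.46 and 0.42 in KO, or 416 reads against 54. In KO the mean was 7.83-fold lower (limma log2 fold change -1.66 ± 0.10 SE, adjusted p = 5.15e-05). The KO mean of GATA2-AS1 was 0.464 FPKM, so it passed the level of the rule through WT. GATA2, a transcription factor of blood and endothelial development, read from 2.44, 1.98 and 2.47 FPKM to 0.82, 0.73 and 0.96, 2.74-fold lower (-0.84 ± 0.10 SE, adjusted p = 0.000788). GATA2-AS1 (chr3:128489212-128502348, plus strand) and GATA2 (chr3:128479427-128493185, minus strand) are head to head, with starts 3973 bases apart and no exonic base shared. Here the antisense RNA fell more than its sense gene, by a pair difference of -0.82 ± 0.14 SE (adjusted p = 0.00431), and in WT it was the more abundant of the pair.

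TMEM132D-AS1 and TMEM132D went in opposite directions. The antisense RNA (chr12:129109629-129113294, plus strand) lies inside TMEM132D, a single-pass membrane protein gene (chr12:129071725-129903666, minus strand), and shares no exonic base with it. TMEM132D-AS1 read 3.85, 4.02 and 4.69 FPKM in WT and 1.75, 1.51 and 1.80 in KO, 2.48-fold lower (log2 fold change -0.95 ± 0.09 SE, adjusted p = 0.000307). TMEM132D was close to silent in WT, at 0.18, 0.19 and 0.21 FPKM, and stood at 6.51, 6.02 and 5.89 in KO, 31.6-fold higher (2.58 ± 0.08 SE, adjusted p = 3e-06). In WT the antisense RNA exceeded the sense gene in every library, and in KO the order was the reverse. The pair difference was -3.53 ± 0.09 SE, with an adjusted p of 4.78e-07.

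**Figure D3:**
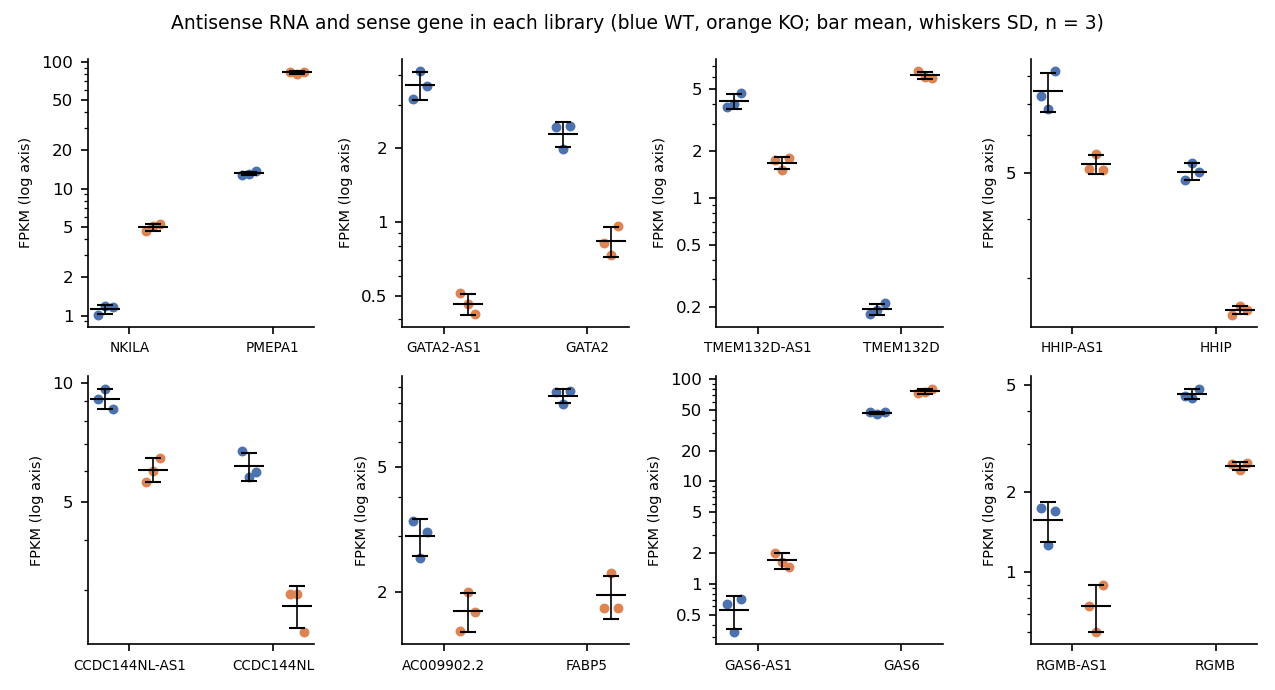
For 8 pairs, points give the FPKM of the antisense RNA (left) and its sense gene (right) in each library on a log axis, blue for WT and orange for KO, with the mean and SD of 3 libraries. In 7 pairs both genes moved the same way, and in TMEM132D-AS1 and TMEM132D they crossed, from 4.19 and 0.194 FPKM in WT to 1.69 and 6.14 in KO.

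The next largest rises were smaller and mostly in scarce RNAs. AL441992.1 overlaps the end of ZER1, a substrate receptor of a ubiquitin ligase, and read 2.28, 2.65 and 1.88 FPKM in WT and 6.75, 4.70 and 5.76 in KO (log2 fold change 1.04, adjusted p = 0.00105). ZER1 rose with it, from 4.04 ± 0.174 to 7.18 ± 0.821 FPKM (SD, n = 3; 0.69, adjusted p = 0.000825 in the limma fit), and the pair difference missed the threshold (limma adjusted p = 0.126). GAS6-AS1, tail to tail with GAS6, the ligand of the TAM receptor kinases, went from 0.63, 0.34 and 0.71 to 2.02, 1.62 and 1.45 FPKM (0.79, adjusted p = 0.00329). GAS6 itself was the more abundant by far and rose from 46.6 ± 1.33 to 76.0 ± 4.34 FPKM (SD, n = 3; 0.69, limma adjusted p = 0.000281), with no detected pair difference (adjusted p = 0.645). FUT8-AS1 lies in the start region of FUT8, the enzyme that adds core fucose, with 54.2% of its exonic bases in FUT8 exons. It rose from 0.89, 0.55 and 0.91 to 1.95, 1.72 and 2.10 FPKM (0.72, adjusted p = 0.0027), and FUT8 from 10.9 ± 0.872 to 14.4 ± 0.844 (SD, n = 3; 0.37, limma adjusted p = 0.00731).

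AC100810.1, inside CLN8, an endoplasmic reticulum cargo receptor, rose 1.82-fold from 3.51 to 6.41 FPKM (limma adjusted p = 0.00409), and AP001469.1, inside the lanosterol synthase gene LSS, 2.46-fold from 0.677 to 1.67 FPKM (adjusted p = 0.00772). Their sense genes rose less, by 0.29 for CLN8 and 0.30 for LSS on the log2 scale (limma adjusted p = 0.0348 and 0.0399). Neither sense call held with the authors' values corrected for G and C content and length, where the log2 fold changes were 0.19 and 0.15. LSS also lost it without WT replicate 1 (0.33) or 2 (0.20) or KO replicate 1 (0.30), 2 (0.28) or 3 (0.33), and CLN8 without WT replicate 2 (0.25) or 3 (0.27) or KO replicate 1 (0.26) or 2 (0.25). Both lost it with no filter on low values and with the replicate block, and LSS with quantile normalization (0.25). AL391834.1 rested on 15 reads in WT and 47 in KO and rose 3.09-fold (adjusted p = 0.00845), while DENND4C around it, an activator of Rab10, was not called at 3.98 against 3.29 FPKM (adjusted p = 0.175). Without WT replicate 3 DENND4C was called lower, at -0.32 (adjusted p = 0.0276). The pair difference was 1.0 ± 0.12 SE (limma adjusted p = 0.00114). AL109615.3 stood at 0.62, 0.58 and 1.02 FPKM in WT and 1.5, 1.52 and 3.02 in KO (adjusted p = 0.0208), with KO replicate 3 above the others, and the gene inside it, C6orf223, held only 4 and 26 reads. That call was lost without WT replicate 1 (0.72) and without WT replicate 2 (0.70).

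Among those that fell, 2 lie over CCDC144NL on chromosome 17. CCDC144NL-AS1, one of the most deeply read members with 4685 and 3140 reads, stood at 9.09, 9.68 and 8.61 FPKM in WT and 5.63, 5.99 and 6.47 in KO (log2 fold change -0.53, adjusted p = 0.00135). AC090774.2 went from 2.11, 2.28 and 1.45 to 0.55, 0.25 and 0.88 FPKM (-0.92, adjusted p = 0.00575). CCDC144NL fell from 6.16 ± 0.512 to 2.74 ± 0.336 FPKM (SD, n = 3; -0.94, limma adjusted p = 0.000344), which was more than CCDC144NL-AS1 (pair difference 0.41, adjusted p = 0.0409). AC096586.2 lies inside GUF1, a mitochondrial translation factor, and rested on 43 and 12 reads (-0.95, adjusted p = 0.00952), and GUF1 fell from 9.93 to 6.83 FPKM (-0.48, adjusted p = 0.00408). The call of AC096586.2 was lost under the correction for G and C content and length, at -0.62.

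In other members that fell, the sense gene did not pass the threshold. ATP1B3-AS1, inside the gene of a sodium pump beta subunit, stood at 5.19, 2.24 and 2.24 FPKM in WT and 1.55, 0.93 and 0.64 in KO (log2 fold change -1.0, adjusted p = 0.0242), with WT replicate 1 apart from the rest. ATP1B3 was one of the most abundant sense genes, at 118.9 ± 9.33 against 116.9 ± 11.0 FPKM (SD, n = 3; limma adjusted p = 0.849), and the pair difference missed the threshold (adjusted p = 0.0545). The call of ATP1B3-AS1 was lost without KO replicate 2 (-0.97) and without KO replicate 3 (-0.86), and under the correction for G and C content (-0.75). AL049629.1, at the end of KIAA1549L, fell 4.67-fold on 55 and 12 reads (adjusted p = 0.00629), against 13.9 and 13.0 FPKM for KIAA1549L (adjusted p = 0.279; pair difference -0.89, adjusted p = 0.0101).

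THAP9-AS1, LBX2-AS1 and TM4SF19-AS1 also fell, and the main sense gene of each was under 1 FPKM. THAP9-AS1 stood at 6.47, 7.23 and 5.63 FPKM in WT and 4.49, 3.32 and 3.51 in KO (log2 fold change -0.64, adjusted p = 0.00458), while THAP9, a gene derived from a DNA transposase, held 110 and 79 reads. LBX2-AS1 read 1.67, 0.89 and 2.08 against 0.45, 0.73 and 0.58 FPKM (-0.66, adjusted p = 0.0247), beside 71 and 77 reads of the homeobox gene LBX2. Its call was lost without WT replicate 1 (-0.61), WT replicate 3 (-0.51), KO replicate 1 (-0.60) or KO replicate 3 (-0.66). TM4SF19-AS1 went from 3.38, 3.80 and 3.32 to 1.53, 1.39 and 2.57 FPKM (-0.69, adjusted p = 0.00987), with 2 reads of its main sense gene, a readthrough transcript, in either genotype. It also overlaps TM4SF19, a membrane protein, which fell from 4.08 to 2.94 FPKM (-0.37, adjusted p = 0.0217).

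Of the 5 most abundant antisense RNAs, 1 passed the threshold. AC005291.2, 1 of 2 members over the myosin gene MYH13, read 55.49, 68.11 and 56.21 FPKM in WT and 74.56, 65.25 and 72.55 in KO, and the genotypes overlapped (adjusted p = 0.083). It passed without WT replicate 2, at 0.33 (adjusted p = 0.0162). AC005291.1, the other, rose from 19.0 ± 3.20 to 24.9 ± 1.03 FPKM (SD, n = 3; log2 fold change 0.38, limma adjusted p = 0.0298), a call lost without WT replicate 1 (0.38) or without KO replicate 1 (0.42), 2 (0.37) or 3 (0.37). Both exceeded MYH13, the myosin of extraocular muscle, which stood at 3.48 against 2.79 FPKM (adjusted p = 0.0563) and passed with limma-voom (-0.35) and with the G and C correction (-0.33). Relative to MYH13 both rose, by pair differences of 0.48 and 0.62 (adjusted p = 0.00527 and 0.00225).

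FGD5-AS1, at 35.14, 38.92 and 31.99 against 27.23, 29.68 and 31.34 FPKM, did not overlap between genotypes but missed the threshold (log2 fold change -0.26, adjusted p = 0.052), on 9105 and 7686 reads. It passed without WT replicate 3 (-0.32, adjusted p = 0.0223), with the filter at 2 FPKM (adjusted p = 0.0465), with quantile normalization (-0.31, adjusted p = 0.0293) and with limma-voom on recovered reads (-0.30, adjusted p = 0.0118). Its main sense gene FGD5 held 1 and 12 reads, and NR2C2, a nuclear receptor that it also overlaps, fell from 8.321 to 6.498 FPKM (adjusted p = 0.00718). AC099850.3 over PRR11, a gene of mitotic progression, ranged from 43.27 to 60.07 FPKM in WT and from 26.69 to 53.07 in KO (adjusted p = 0.388). PRR11 itself fell from 25.39 to 19.73 FPKM (-0.36, limma adjusted p = 0.0326). That call was lost without WT replicate 1 (-0.38), 2 (-0.34) or 3 (-0.36) or KO replicate 1 (-0.24) or 2 (-0.37). AC005288.1, over the Mediator subunit gene MED1, stood at 20.5 ± 1.11 and 17.4 ± 2.84 FPKM (SD, n = 3; limma adjusted p = 0.143), and it passed without KO replicate 3, at -0.34. MED1 fell from 16.1 to 13.1 FPKM (-0.28, adjusted p = 0.0105), a call lost without WT replicate 1 (-0.24), while FBXL20, which AC005288.1 also overlaps, rose from 1.45 to 2.44 FPKM (adjusted p = 0.00205).

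An overlapping protein-coding gene on the other strand was found for 279 of the 330, and 41 of these had more than 1, of which the longest overlap counts as the main sense gene. The 279 had 269 different main sense genes, and 226 of those reached 1 FPKM. Of the 226, 48 rose and 54 fell, so that 45.1% changed, beside 46.7% of all protein-coding genes, with a median log2 fold change of -0.02. The antisense RNA was mostly the minor partner: its median level was 20.5% of that of the sense gene, it was under 10% in 75 of 234 pairs and it was the higher of the pair in 28.

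Both genes changed in 31 of the 234 pairs, in the same direction in 26 (15 up and 11 down) and in opposite directions in 5. The 26 are 11.1% of the pairs, and among all 1582 overlapping opposite-strand pairs of tested genes 13.3% changed in the same direction and 3.73% in opposite directions, 17% in all. The antisense RNA alone changed in 22 pairs and the sense gene alone in 73, while neither passed in 108. The signs of the 2 log2 fold changes were equal in 143 of the 234. Across the pairs the log2 fold changes had a Pearson r of 0.37 and a Spearman coefficient of 0.36 (n = 234), as a description, since pairs come from the same 6 libraries and some share a sense gene. The pair difference passed in 49 pairs (20.9%, against 33.4% of all pairs), 34 with the antisense RNA up relative to its sense gene and 15 with it down, where over all pairs the gene set against the sense gene was up in 17.6% and down in 15.9%. Because 1 is added to each FPKM, equal ratios at unequal levels give some difference on this scale, and with 0.1 added in place of 1 the count was 43.

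**Figure D4:**
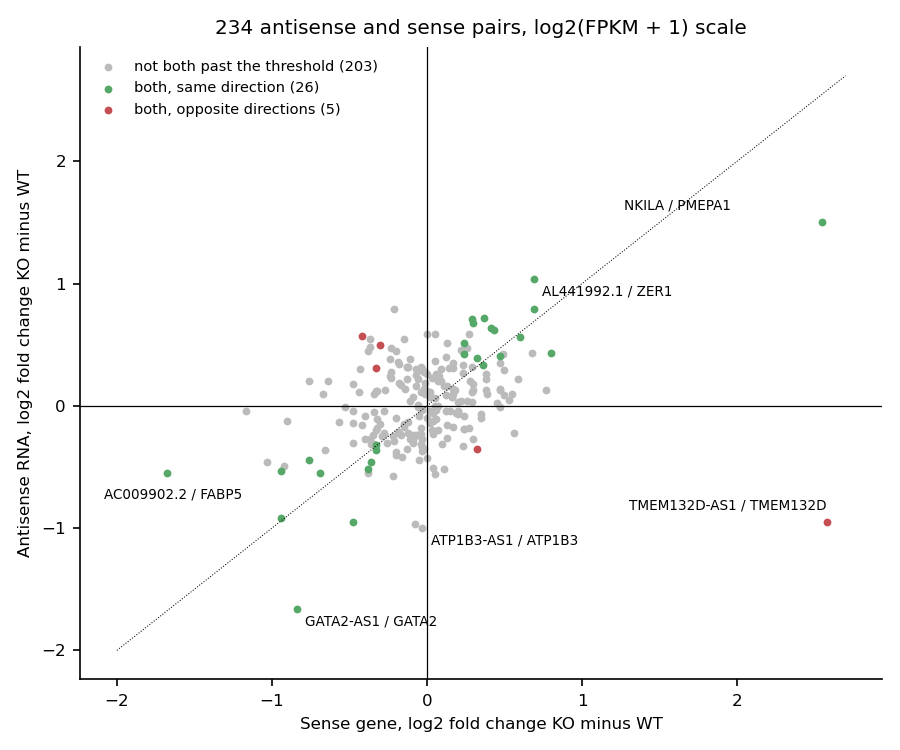
Each of 234 points is a pair, with the log2 fold change of the sense gene against that of the antisense RNA, both KO minus WT on log2(FPKM + 1), and a dotted line where they are equal. Most points lie near 0, 26 pairs in green passed in the same direction and 5 in red in opposite directions, with TMEM132D-AS1 farthest from the line.

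By arrangement, 96 pairs had the antisense RNA inside the sense gene, 84 were head to head, 47 tail to tail and 7 had the sense gene inside. Head to head, where the median distance between starts was 707.5 bases, 14 sense genes rose and 33 fell, while 10 antisense RNAs rose and 9 fell. Tail to tail, 16 sense genes rose and 5 fell, and 6 antisense RNAs moved either way. Both genes changed in 15 head-to-head pairs, 11 in the same direction and 4 in opposite directions, in 5 tail-to-tail pairs, all in the same direction, and in 11 with the antisense RNA inside, of which 10 in the same direction. The differences between arrangements were not tested. Pairs that share exonic bases (161) had 16 changes in the same direction and 3 in opposite directions, and those that share none (73) had 10 and 2. Over all tested genes 43.4% were called (21% higher and 22.4% lower), and 46.7% of protein-coding genes. Of all overlapping opposite-strand pairs, 13.3% changed in the same direction and 3.73% in opposite directions.

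The rule named further pairs in which both genes changed in the same direction. HHIP-AS1, head to head with HHIP, a decoy receptor that binds hedgehog ligands, stood at 7.25, 6.83 and 8.19 FPKM in WT and 5.09, 5.49 and 5.07 in KO (log2 fold change -0.44, adjusted p = 0.00395). HHIP fell from 5.03 ± 0.209 to 2.57 ± 0.0552 FPKM (SD, n = 3; -0.76, limma adjusted p = 0.000186), more than its antisense RNA (pair difference 0.32, adjusted p = 0.0332). Their RefSeq windows overlap by 236 of their bases, although the outermost annotated starts are 15336 bases apart. RGMB-AS1 lies inside RGMB, a co-receptor for bone morphogenetic proteins, and went from 1.74, 1.26 and 1.69 to 0.75, 0.60 and 0.90 FPKM (-0.55, adjusted p = 0.00902). RGMB fell with it from 4.62 ± 0.202 to 2.49 ± 0.0842 FPKM (SD, n = 3; -0.69, limma adjusted p = 0.00031), with a pair difference that missed the threshold (adjusted p = 0.361).

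AC009902.2 is head to head with FABP5, a fatty acid carrier, on chromosome 8. It fell from 3.37, 2.57 and 3.09 to 1.5, 1.99 and 1.72 FPKM (log2 fold change -0.55, adjusted p = 0.00601), and FABP5 from 8.65, 7.92 and 8.74 to 1.77, 2.30 and 1.77 (-1.68, adjusted p = 2.98e-05). FABP5 fell 4.34-fold and its antisense RNA 1.74-fold, a pair difference of 1.13 ± 0.09 SE (limma adjusted p = 0.000201). HOTAIRM1, an RNA known from myeloid cells, read 1.58, 1.89 and 2.69 FPKM in WT and 3.94, 4.16 and 2.5 in KO, so that KO replicate 3 lay within the WT range (0.56, adjusted p = 0.0436). The call was lost without WT replicate 1 (0.45) or 2 (0.53) and without KO replicate 1 (0.49) or 2 (0.46). AC024896.1 rose from 6.68 to 9.37 FPKM (0.43, adjusted p = 0.0334) and TM7SF3, a membrane protein linked to stress tolerance of beta cells, from 29.95 to 52.56 FPKM (0.80, adjusted p = 0.000474). The AC024896.1 call was lost without WT replicate 1 (0.41) or 3 (0.36), or KO replicate 2 (0.46) or 3 (0.30).

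Beside TMEM132D, 4 pairs changed in opposite directions, all head to head with starts under 1000 bases apart and with smaller fold changes. FLJ37453 rose and SPEN, a transcriptional co-repressor, fell (log2 fold change 0.50 and -0.30, adjusted p = 0.0359 and 0.00845). ARHGAP5-AS1 rose from 1.26 to 2.33 FPKM and ARHGAP5, a GTPase-activating protein, fell from 5.46 to 3.85 (0.57 and -0.42, adjusted p = 0.00769 and 0.0324). AC016065.1 rose and MCPH1, a regulator of chromosome condensation, fell (0.31 and -0.33, adjusted p = 0.0148 and 0.0232). AL451042.2 fell and the ephrin receptor EPHA2 rose, from 107.6 to 134.4 FPKM (-0.35 and 0.32, adjusted p = 0.0479 and 0.0154). The pair differences passed in all of these (adjusted p = 0.00527, 0.009, 0.00548 and 0.0199, in the same order), but each held a gene whose own call was lost on leaving out 1 library.

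Those losses were as follows. FLJ37453 missed the threshold without WT replicate 1 (0.49) or 2 (0.37) or KO replicate 1 (0.42) or 3 (0.50). ARHGAP5 did so without WT replicate 1 (-0.34) or 2 (-0.40) or KO replicate 2 (-0.32) or 3 (-0.42), and with the correction for G and C content its value was 0.05 (adjusted p = 0.707). AC016065.1 did so without WT replicate 1 (0.29) or KO replicate 2 (0.31), and MCPH1 without WT replicate 1 (-0.33) or 2 (-0.27) or KO replicate 2 (-0.30) or 3 (-0.33). AL451042.2 missed it whichever of the 6 libraries was left out (-0.41 to -0.25), and EPHA2 without WT replicate 1 (0.32) or KO replicate 2 (0.30). With the correction for G and C content FLJ37453 (0.29), MCPH1 (-0.16) and EPHA2 (0.14) also lost their calls (limma adjusted p = 0.0921, 0.107 and 0.058). TMEM132D-AS1 and TMEM132D passed under every alternative computed for them.

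**Figure D5:**
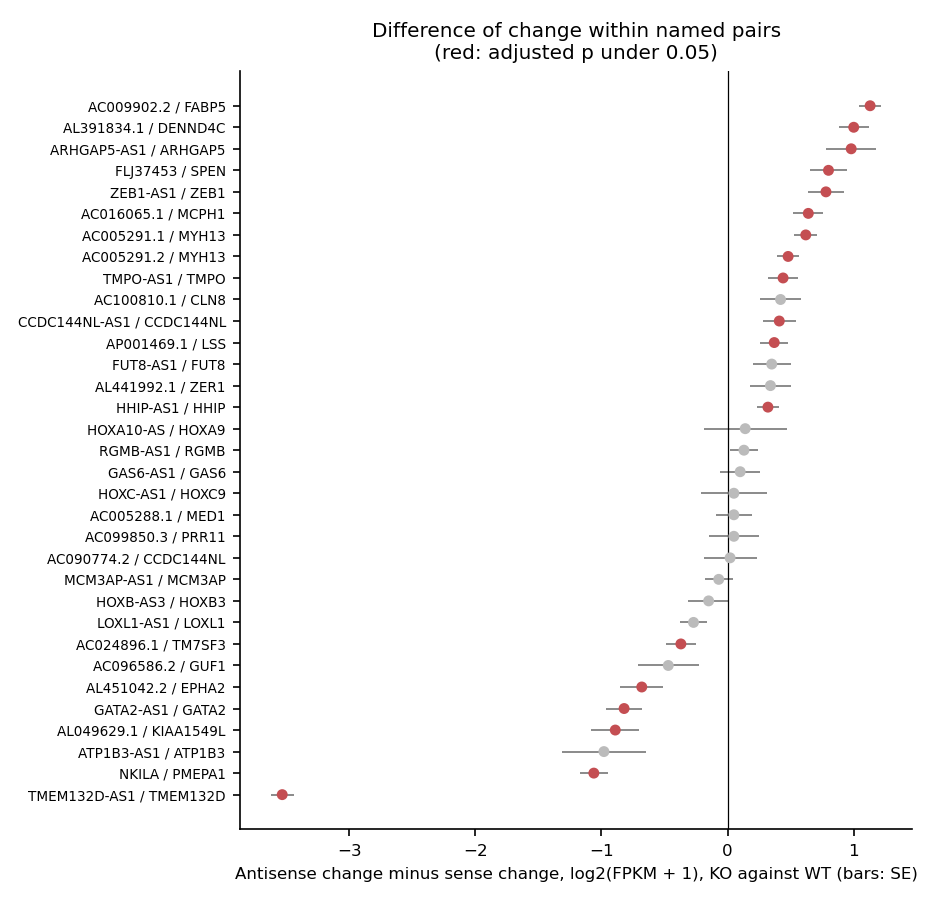
Points give the change of the antisense RNA minus that of its sense gene, KO against WT on log2(FPKM + 1), with SE, for 33 named pairs with both genes tested, and red marks a limma adjusted p under 0.05. The pair of TMEM132D lies farthest from 0 at -3.53, and AC009902.2 with FABP5 lies at the other end at 1.13.

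Among the widely studied antisense RNAs listed, ZEB1-AS1 and TMPO-AS1 showed no detected change while the main sense gene did change. ZEB1-AS1 read 1.64, 1.57 and 1.15 FPKM in WT and 1.26, 1.34 and 1.15 in KO (log2 fold change -0.12, adjusted p = 0.415). ZEB1, a repressor of epithelial genes with a head-to-head start 1952 bases away, fell from 7.81, 8.25 and 6.51 to 3.89, 2.91 and 3.97 (-0.90, adjusted p = 0.00125), and the pair difference was 0.78 ± 0.14 SE (limma adjusted p = 0.00451). TMPO-AS1 also missed the threshold, at 1.67 ± 0.254 and 1.44 ± 0.0148 FPKM (SD, n = 3; limma adjusted p = 0.32), while TMPO, a lamina-associated protein, fell from 26.3 to 17.3 FPKM (-0.57, adjusted p = 0.00727; pair difference 0.44, adjusted p = 0.023).

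Other known antisense RNAs missed the threshold together with their main sense gene. LOXL1-AS1 stood at 8.59 against 7.37 FPKM (adjusted p = 0.0735; called with limma-voom, at -0.26) and LOXL1, an elastin crosslinking enzyme, at 16.7 against 17.5 (adjusted p = 0.498). MCM3AP-AS1, over a gene of messenger RNA export, stood at 1.27 and 1.20 FPKM (adjusted p = 0.715). In the HOX clusters, HOXA10-AS (adjusted p = 0.402), HOXB-AS3 (0.238) and HOXC-AS1 (0.566) were not called, nor were the main sense genes HOXA9 (0.18), HOXB3 (0.638) and HOXC9 (0.431). Of the other homeobox genes they overlap, HOXA10 rose over HOXA10-AS (4.66 to 6.68 FPKM, limma adjusted p = 0.0135), and HOXB6 (5.955 to 4.003 FPKM, adjusted p = 0.0212) and HOXB5 (3.18 to 2.31 FPKM, adjusted p = 0.0312) fell over HOXB-AS3. HOXB4 and HOXC6 were not called (adjusted p = 0.577 and 0.0551). These 3 HOX antisense RNAs rested on 70, 254 and 36 reads over the WT libraries.

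No overlapping protein-coding gene was found for 51 antisense RNAs, of which 11 rose and 7 fell, beside 24.2% of all 330 called and 43.4% of all tested genes. Their nearest opposite-strand protein-coding start lay within 1000 bases in 33 (64.7%), at a median distance of 354 bases. For all 330 members this was so in 134 (40.6%, median 2514 bases), against 19.1% of 5146 other autosomal antisense rows (median 19106 bases), a description in which the level had chosen the members. Among the 134, both genes changed in 19, in the same direction in 15 and in opposite directions in 4, where among all overlapping pairs 17% had both genes called, 13.3% in the same direction and 3.73% in opposite directions. The 134 include neighbours that do not overlap or were not tested, which those pairs exclude, so the shares are not directly comparable.

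LINC01137 starts 141 bases from ZC3H12A, which encodes the inflammatory RNA endonuclease Regnase-1. It stood at 2.97, 2.54 and 2.28 FPKM in WT and 5.31, 5.54 and 4.75 in KO, 2.0-fold higher (log2 fold change 0.79, adjusted p = 0.000729). ZC3H12A was higher as well, at 6.63 ± 0.364 against 8.10 ± 0.666 FPKM (SD, n = 3; 0.25, limma adjusted p = 0.0305). NALT1 starts 426 bases from NOTCH1 and was described as an RNA of leukaemic T cells. It went from 0.60, 0.88 and 0.55 to 2.95, 2.67 and 1.61 FPKM, 3.55-fold higher on 37 and 134 reads (1.0, adjusted p = 0.00337). The NOTCH1 receptor gene was not called, at 9.04 and 9.95 FPKM (adjusted p = 0.254). AL078581.1, on 27 and 8 reads, fell 3.43-fold (adjusted p = 0.00721), and its nearest such start, of GINM1, lies 26369 bases away.

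The proteins that shorten or bind antisense RNA were read from a list of 39 genes of the exosome, its nuclear adaptors and double-stranded RNA handling. In KO 3 rose and 10 fell, 26 missed the threshold, and the median log2 fold change was -0.09, against -0.01 over all tested genes. The 13 of 39 stand beside 43.4% of all tested genes. Exosome subunits moved both ways: EXOSC6 fell from 17.98 ± 0.423 to 10.6 ± 0.464 FPKM (SD, n = 3; -0.71, limma adjusted p = 0.000181) and EXOSC5 rose from 33.7 ± 1.59 to 48.1 ± 1.64 (0.50, adjusted p = 0.00085). ZFC3H1 and ZCCHC8, which hand nuclear RNA to the exosome, fell by 0.59 and 0.55 on the log2 scale (adjusted p = 0.00078 and 0.000852). The exonuclease XRN1 and the double-stranded RNA nuclease DICER1 were lower in every KO library, with 4.38 against 2.11 FPKM (-0.79, adjusted p = 0.000488) and 7.52 against 3.89 FPKM (-0.80, adjusted p = 0.000534). With the correction for G and C content 21 of the 39 were called in place of 13. The 43.4% comes from the fit without that correction, so it cannot be set beside the 21.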

How the data were processed

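Total RNA of 3 WT and 3 KO libraries was sequenced, and the authors deposited FPKM per gene in 1 table with gene positions, lengths and biotypes. All 58735 gene positions equal those of GENCODE 29 on GRCh38, and gene lengths equal the exon union. GRCm38 and mm10, builds of the mouse genome, are listed in the submitters' processing notes, but the positions are human. Alignment, counting and strandedness were not given in the sources used here. Values divided by what 1 read is worth gave whole reads for 100.0% of values in each library (tolerance 0.02), which gives the depths printed.

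Tests used limma 3.58.1 in R 4.3.3 (lmFit, eBayes with trend, genotype only, two-sided) on log2(FPKM + 1) over the 12000 genes that averaged 1 FPKM or more, with Benjamini-Hochberg adjustment over all of them. Pair differences were fitted the same way over 1582 overlapping opposite-strand pairs with a protein-coding partner. Sense genes overlap a member by at least 1 base. Named genes are ADGRG1, the 10 largest rises and 10 largest falls among called members without overlap of genotypes, the 5 highest levels, their main sense genes, all pairs called in opposite directions, 6 further pairs in the same direction, a list of known antisense RNAs, and 6 genes of the decay list. The members, the lists and the rule were chosen with earlier results of these data known. The fits were also run on simulated reads with few changed genes and no trend with G and C content. That setting differs from these data, so the run cannot show how often calls here are wrong. Sequences are from RefSeq. The G and C correction regressed each library on G and C content and length of 99.9% of the genes. Before it, the deviation of genes from their mean over the libraries followed their G and C content. The Spearman coefficients were -0.4, -0.62 and -0.01 in WT and 0.46, 0.44 and 0.23 in KO. Because this trend differs by genotype, a library effect and a genotype effect that follow G and C content cannot be told apart. Alternatives are in the closing section. The pair values of 1 member, HOTAIRM1, are not reported here.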

Additional observations from a re-analysis of the deposited data

How the results depend on the processing

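The members called (80; 44 higher, 36 lower) numbered 44 (23, 21) with no filter on low values, 43 (23, 20) of the 130 left by a filter at a mean of 2 FPKM, 82 with quantile normalization, 68 with limma-voom on recovered reads, 78 with 0.1 added and 91 with the G and C correction. Of the 80, 29 were called in each of these, in the block fits and in every leave-one-out fit, the 2 FPKM filter aside. With the G and C correction alone, 62 of the 80 kept their call and direction. Leaving out 1 library gave 54 to 79 (28 to 49 higher, 23 to 40 lower), 77 to 109 sense genes, 31 to 42 pair differences (18 to 28 up), 18 to 27 pairs in the same and 1 to 9 in opposite directions. The filter at 2 FPKM left 39 sense genes called (23, 16), 24 pair differences (14, 10) and 13 pairs in the same and 2 in opposite directions, and no filter 15 and 1. Only pairs without a shared exonic base gave 32 sense genes (14, 18) and 15 pair differences (11, 4), being fewer pairs. The decay list had 21 called with the G and C correction. Under that correction ARHGAP5 reversed to 0.05, also with the block (0.05), and LOXL1 to -0.17 (main 0.07). Except where genes or samples were fewer, the cause was not tested. The shares over all tested genes (43.4%) and all pairs (33.4%) belong to the main fit. Counts under the alternatives in this section stand without such shares. They show how the calls moved, and not whether members changed more or less than other genes.

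Same-numbered libraries of the 2 genotypes did not deviate together (correlations -0.07, -0.18 and -0.35), and the other pairings of libraries gave -0.21 to 0.37. With 3 libraries per genotype, these values cannot show whether any libraries were prepared together. With replicate number as a block, 60 members (33 higher, 27 lower) and 35 pair differences (22 up) were called. With the block and the G and C correction together there were 69 members, 32 pair differences (19 up) and 3 pairs in opposite directions.

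Under 50 reads per library lay 190 members, of which 17.9% were called beside 20.5% of all genes with so few reads, and the part of depth was not tested. Of 1111 values of named genes under alternatives, 1000 kept direction and call, 97 lost the call, 11 gained it and 3 reversed.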

Other observations

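Below the level of the members, 4 antisense rows held at most 3 reads over the WT libraries and 30 or more over the KO libraries, picked after their values were seen. PIK3CD-AS2 read 1, 1 and 1 in WT and 15, 23 and 21 in KO. TCERG1L-AS1 read 0, 0 and 3 in WT and 16, 12 and 15 in KO. AL121721.1 had 2 reads in WT and 30 in KO, and TRG-AS1, over the T-cell receptor gamma locus, had 3 and 32. Each KO library exceeded each WT library in all 4, which a choice by these read sums makes likely and which is no finding. None of the 4 was tested, and how many other genes show this pattern or its reverse is not given here. Read counts this low cover little of each transcript.

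Members with a change of their own beside a sense gene that was not called include 3 of the HOX clusters and of RNA handling, also named after their values were seen. HOXD-AS2 rose from 1.04 to 1.99 FPKM (limma adjusted p = 0.0019) around HOXD8, with a pair adjusted p of 0.00199. HOXB-AS4 fell from 6.19 to 4.31 FPKM (adjusted p = 0.00756) beside HOXB7, with a pair adjusted p of 0.0998. AC009948.1 fell from 3.11 to 1.87 FPKM (adjusted p = 0.0103) at the end of PRKRA, an activator of the double-stranded RNA kinase, with a pair adjusted p of 0.0189.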
